A study of Chlamydomonas reinhardtii with 2 samples.

Results

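Among the places where messenger RNA of the green alga Chlamydomonas reinhardtii was read, 1293 were long islands: stretches of at least 1000 consecutive bases, each base covered by at least 1 uniquely aligned read, with a mean depth below 100 reads per base. They were found by summing the 2 libraries of the study base by base, and were 0.402% of the 321431 unbroken stretches of coverage (most of which were about as long as 1 read, with a median of 35 bases). Length and depth chose the islands, so their lengths and depths are given as a description and carry no test.

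The cells were of strain 2137 in Tris-acetate-phosphate (TAP) medium with a revised trace element supplement, at 23 °C under constant light (50 to 90 µmol photons m-2 s-1), after growth on agar with Hutner's trace elements. Both samples belong to this 1 group, and no second medium was analysed here. The strain tag of replicate 2 reads 2138 where its title reads 2137, and the title was followed. RNA was selected by its poly-A tail, fragmented at random and read as single ends of 35 nt, giving 5380216 uniquely aligned reads in replicate 1 and 5787626 in replicate 2. Whether they were grown as separate cultures is not stated. P-values between them therefore measure only how far these samples differ, which may be technical.

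In poly-A selected RNA most introns have been spliced out, so that reads on the genome collect over exons and leave introns bare. Genes of Chlamydomonas carry many introns, and their last exon often runs on into a long 3′ untranslated region. Random fragmentation after selection spreads reads over a transcript. Where RNA is broken before selection, only pieces joined to the tail are held, and depth along a transcript can then be uneven. The tables give neither strand nor gene nor scaffold for a position. Which end of an island is nearer the 5′ end of a transcript is therefore unknown here, and positions are those of the scaffolds of assembly version 3.1 joined end to end. An island could in principle cross the border of joined scaffolds.

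The islands were mostly just over the length limit and of low depth. Their lengths had a median of 1244 bases (interquartile range 1098 to 1504), and 658 of them were shorter than 1250 bases, while 62 reached 2000 to under 3000 bases and 6 reached 3000 or more. Mean depth had a median of 15.2 reads per base (interquartile range 9.87 to 26.2) and ran from 4.07 to 99.2. It was under 10 in 331 islands, from 10 to under 30 in 690 and from 30 upward in 272. Together the islands covered 1.75 Mb, 7.12% of all covered bases, and held 1135535 reads, 10.2% of all reads. The 123 equally long stretches of mean depth 100 or more had a median length of 1264 bases and a median depth of 197.9, so the limit on depth left out stretches of similar length. Across the islands, length and mean depth had a Spearman rho of 0.193 (1293 islands, which share libraries and depth, and no test is given).

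**Figure D1:**
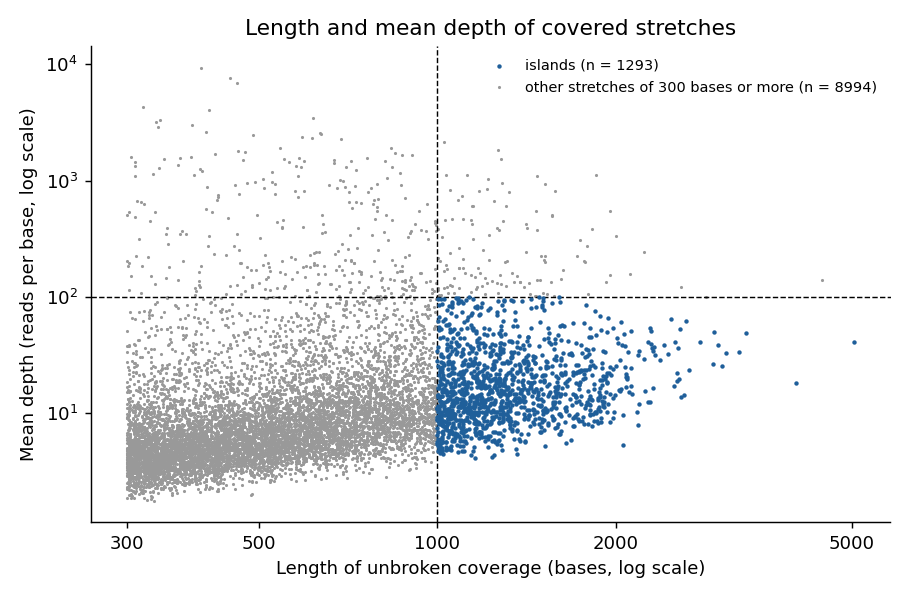
Length of unbroken coverage (bases, log scale) against mean depth (reads per base, log scale) for every stretch of 300 bases or more; each point is 1 stretch, and dashed lines mark 1000 bases and a mean depth of 100. The 1293 islands fill the lower right corner, crowded near 1000 bases and a depth of about 15.2, with the 2 longest at 4024 and 5043 bases.

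At the length limit, the 3 shortest islands had exactly 1000 bases, with mean depths of 11.1, 28.3 and 34.5. The 3 longest stretches that missed the limit had 999 bases, with mean depths of 33.1, 12.1 and 9.61. At the depth limit, the 5 deepest islands had mean depths of 99.2, 99.05, 98.99, 98.5 and 98.2, and the 3 stretches just over it had 100.2, 100.99 and 101.1. Nothing but the rule separates the members from these neighbours.

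The longest island had 5043 bases, at 91117369 to 91122411, with a mean depth of 41.3 (19.9 in replicate 1 and 21.4 in replicate 2). Its depth was far from even: of 10 equal segments, the first had 10.9 reads per base and the last 136.8. In replicate 2 it was unbroken over all 5043 bases, and in replicate 1 over 4619. The next longest, of 4024 bases at 108399421 to 108403444, was as even as the first was uneven. Its segments ran from 15.2 to 26.0 reads per base around a mean of 18.1 (8.58 in replicate 1 and 9.55 in replicate 2). The third, of 3311 bases at 57824738 to 57828048, climbed from left to right, with 7.46 reads per base in segment 1, 34.1 in segment 5 and 113.8 in segment 10. The other 7 of the 10 longest had 2772 to 3221 bases and mean depths of 25.4 to 49.9. Depth was higher in the right part of the coordinate in 2 of these 7 and in the left part in 5. Of the 10 longest, those at 69687041 to 69690016, at 45843917 to 45846841 and the second longest had at least 3 reads at every interior base (all but the outer 100 bases on each side), while the other 7 were held together somewhere by a base read once.

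Unbroken coverage often rested on a few reads at the thinnest point. In 729 islands (56.4%) the least covered interior base had a depth of 1, in 169 (13.1%) it had at least 5, and in 53 (4.10%) at least 10. Bases of depth 1 were few, 14700 in all or 0.985% of the interior. They came from both libraries alike, 7270 from replicate 1 and 7430 from replicate 2. The thinnest 35 bases of an island had a median depth of 24.4% of the island's interior median (interquartile range 17.1 to 32%), and the highest base had 3.35 times the mean depth (median, interquartile range 2.88 to 3.98). A read began at 26.6% of the positions of the median island, and the most used start position gave 1.93% of its reads. Single positions thus supplied little of an island's depth.

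The share of islands that stayed unbroken in each library alone was higher in deeper classes. In replicate 1 alone 574 islands (44.4%) held an unbroken run of 1000 bases or more, in replicate 2 alone 588 (45.5%), in both 435 (33.6%), and in neither 566 (43.8%). Among islands of mean depth under 10 the share unbroken in both was 0.604% (331 islands). It was 23.4% at 10 to under 20 (496 islands), 64.1% at 20 to under 40 (301) and 75.2% at 40 to under 100 (165). Over all 1293 islands, the share of bases covered had a median of 97.3% in replicate 1 (lowest 76.2%) and 97.6% in replicate 2 (lowest 82.5%). The faintest island, 1159 bases at 56343507 to 56344665 with 72 reads in replicate 1 and 64 in replicate 2, had a longest unbroken run of 459 bases in replicate 1 and 239 in replicate 2. The 5 faintest islands had mean depths of 4.07 to 4.42, and no library alone kept more than 564 unbroken bases of any of them. These 5 islands met the length limit only in the sum.

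No island was found whose reads were split between the libraries beyond counting error. The rule used their sum and not the split. The split was therefore tested, by an exact two-sided binomial test on each covered stretch of at least 10 reads and Benjamini-Hochberg adjustment over all 43129 of them. It compares these libraries, not conditions. None of the 1293 islands passed an adjusted p of 0.05 (lowest adjusted p = 1), and none of all stretches did (0%, lowest adjusted p = 0.418). At an unadjusted p under 0.05 there were 63 islands (4.87%), and 1725 of all stretches (4.0%). The log2 ratio of replicate 2 over replicate 1 had an interquartile range of -0.09 to 0.06 over the islands and extremes of -0.62 and 0.56. The mean chi-square of the split, which is 1 under pure counting error, was 1.03 for the islands and 1.01 for all stretches. The island with the lowest p, singled out after its values were seen, lay at 17030881 to 17031959 with 530 reads in replicate 1 and 690 in replicate 2 (exact binomial test, unadjusted p = 0.00108).

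Depth was strongly tilted along most islands. The slope was measured as the change of log2 depth per 1000 bases, in bins of 50 bases, with the outer 100 bases of each side left out. Its size had a median of 1.53 log2 units per 1000 bases (interquartile range 0.87 to 2.29). In 909 islands (70.3%) it exceeded 1 unit, which is a change of more than 2-fold per 1000 bases, and in only 7.04% was it under 0.25. Rising and falling islands were equally common along the coordinate, 656 of 1293 (50.7%) rising, and the median signed slope was 0.04.

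The tilt repeated between the libraries. Of the 1263 islands whose slope could be computed in each library alone (30 had an empty bin), 92.6% had the same sign in both, and so had all 888 of these with a slope over 1 unit in the sum. The 888 were picked by the sum of the same libraries, which partly fixes their agreement. The slopes of the libraries differed by a median of 0.33 units and had a Pearson r of 0.949 (across islands, which are not replicates, and no test is given). In islands of mean depth under 10 the median size was 0.97 units and the difference between libraries 0.56. From 10 to under 20 these were 1.58 and 0.39, from 20 to under 40 they were 1.84 and 0.24, and from 40 to under 100 they were 1.95 and 0.19. Only in the faintest class was the difference between libraries thus over 0.5 times the tilt itself. The median size of 1.53 units and difference of 0.33 in the islands stood beside 2.17 units and 0.13 in the 123 deeper stretches. The 4103 stretches of 500 to 999 bases under a mean depth of 100 had a larger median size than the islands, 2.25 units. Their median depth was lower (8.69 against 15.2), and their slopes differed more between libraries, by a median of 1.31 units (4011 stretches). A strong tilt was thus not particular to the islands, since the deeper stretches had it too. In the shorter stretches the slope was fitted over fewer bases. There the difference between libraries was over 0.5 times the tilt, so their median size is not on the same terms. These contrasts were not tested.

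To see the form of the tilt without reusing the same reads, the low and the high side of each island were assigned from the slope in replicate 1 and the depth was read in replicate 2. From the low to the high side, the median depth of the 10 segments was 38.4, 50.9, 64.3, 75.7, 91.0, 107.8, 122.3, 138.4, 145.3 and 97.8% of the island's mean (1277 islands). With the libraries exchanged segment 1 had 38.4%, segment 9 had 144.6% and segment 10 had 93.1%. Depth thus climbed through segment 9 and was lower in segment 10, which holds the outer bases of the high side. The place of the highest segment was counted differently, in the summed depth and from left to right along the coordinate, not from the low side. It was segment 2, 3, 8 or 9 in 677 islands (52.4%), a middle segment (4 to 7) in 429 (33.2%) and the first or last in 187 (14.5%). Both of these sets hold 4 of the 10 segments, so the peak lay in the middle set less often than in the other. In the deeper stretches segments 2, 3, 8 or 9 were highest in 60.2% and a middle segment in 29.3%. The difference was not tested.

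**Figure D2:**
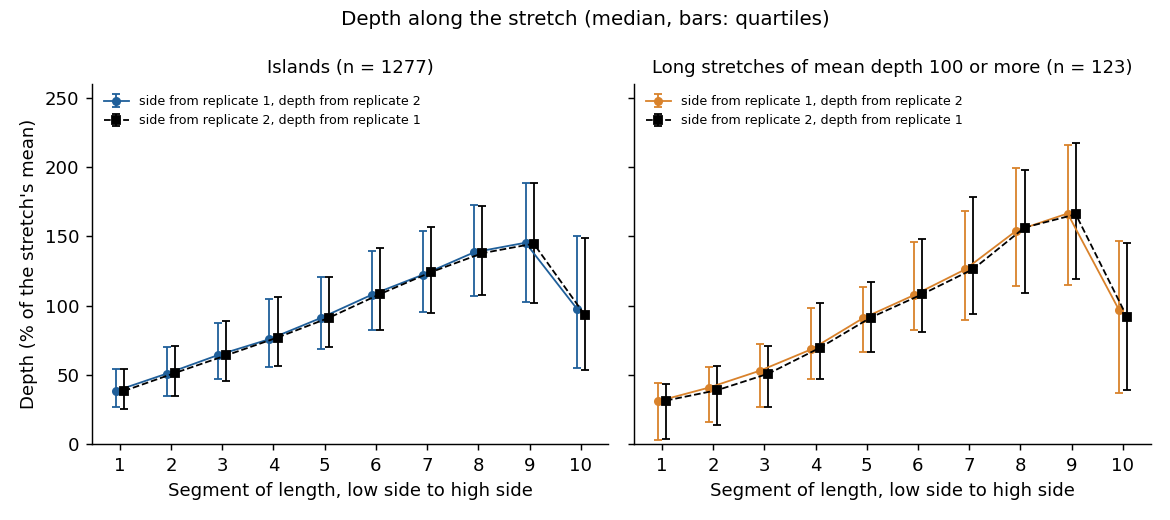
Depth (percent of the stretch's own mean) by segment (10 equal parts of the length) from the low to the high side; points are medians over stretches and bars the quartiles, with the side taken from 1 library and the depth from the other. In the islands (left) the median climbs to 145.3% in segment 9 and is 97.8% in segment 10, and the deeper stretches (right) have the same outline.

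Depth along an island was also described by a single step between 2 levels, in place of a line. A straight line explained a median of 40.4% of the variance of log2 depth among bins (interquartile range 13.9 to 61.3%), and the best-placed step 55.3% (38.4 to 68.0%). The step explained more than the line in 1022 islands (79.0%). It has 1 more free value, its place, and also came out ahead in level islands: in the faintest island it explained 7.96% and the line 0.657%. The count therefore does not tell steps from ramps. The median step was 1.39 log2 units, and in 202 islands (15.6%) it was at least 2 units, or 4-fold. Such a step was thus found in 15.6% of the islands and in 52.0% of the deeper stretches, a contrast that was not tested.

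Several of the islands of steepest slope were a tall block with a thin tail attached. The largest rise was at 93776610 to 93777705, with 8.75 units per 1000 bases (10.30 in replicate 1 and 8.41 in replicate 2). Its left part had a mean depth of 6.36 and its right part 179.5. At 83542454 to 83543938, the island of second highest mean depth, segments 1 to 6 had between 3.84 and 6.56 reads per base and segments 7 to 9 between 184.2 and 364.2. There a single step of 5.92 log2 units explained 97.6% of the variance. The largest fall, at 108088385 to 108089646, was the mirror image: segments 1 to 5 had 101.6 to 150.4 reads per base and segments 7 to 10 had 3.85 to 5.02. Its slope was -6.84 units, with -6.75 in replicate 1 and -7.23 in replicate 2. In all 5 islands of largest rise and all 5 of largest fall a step explained more than a line, with 81.3 to 97.6% of the variance. The form was not the same in each: in the island at 53481898 to 53482919, depth climbed from segment 1 (30.7) to segment 4 (100.7) and then declined over 6 segments to 1.80. Among the 10 longest islands, by contrast, the line explained more than the step in 7.

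**Figure D3:**
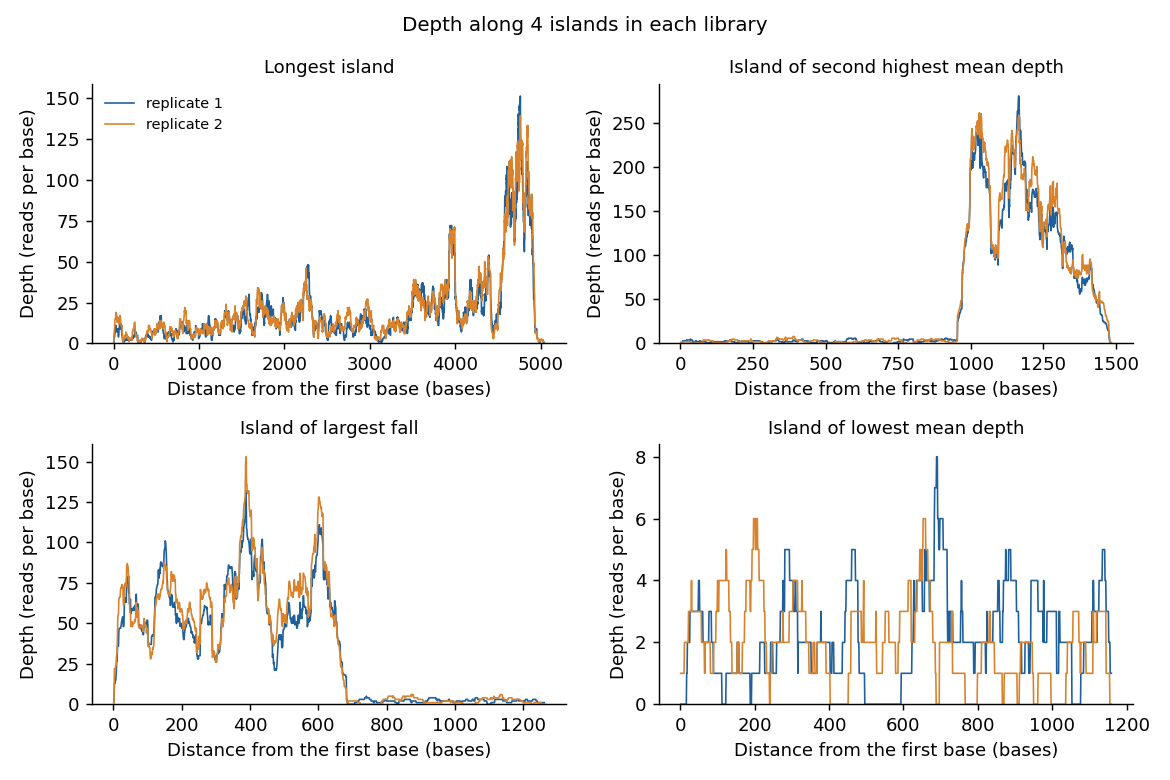
Depth (reads per base) against distance from the first base in replicates 1 and 2 for the longest island, the island of second highest mean depth, the island of largest fall and the faintest island. The libraries trace the same peaks in the 3 deep islands, with a tall block beside a thin tail in 2 of them, while in the faintest island, with a mean depth of 4.07, they differ base by base.

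Depth tapered toward the ends of the islands, within the length of a read at 60.4% of ends and over longer distances at the others. An island ends at the first base without a read, so a taper over about the length of a read is partly built in. The outermost base had a depth of 1 at 1978 of 2586 ends (76.5%). The outer 35 bases had a median depth of 34.03% of the island's interior median (interquartile range 19.4 to 57.9%). Depth first reached 50% of the interior median at a median of 28 bases from the end, within 35 bases at 1563 ends (60.4%) and beyond 200 bases at 127 (4.91%). In 472 islands (36.5%) both ends reached it within 35 bases, in 619 (47.9%) only 1 end did, and in 202 (15.6%) neither did. The share of ends within 35 bases was 72.9% in those shorter stretches and 43.9% in the deeper ones, and the differences were not tested.

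The ends differed by side. On the high side the depth reached 50% of the interior median after a median of 22 bases, and on the low side after 35. At base 35 from the end the median depth was 81.1% of the interior median on the high side and 46.2% on the low side. At base 100 it was 133.3% on the high side and 46.7% on the low side. On the low side depth thus stayed almost level between base 35 and base 100, and on the high side it went on climbing. Inside the island these values are partly fixed by how the sides were named.

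The sequence beyond the ends was not used to name the sides, but the rule set each end at the first base unread in the sum. Such a base is met more readily in thin coverage, so the sides are not on equal terms. How far this shaped the values below was not tested. Coverage beyond the ends differed by side as well. In the first 100 bases beyond the high side a mean of 31.7% of bases had a read, and beyond the low side 44.9%. From 101 to 300 bases beyond the end it was 35.8% on the high side and 55.5% on the low side, and from 2001 to 5000 bases 26.8% on the high side and 32.7% on the low side. The median depth from 101 to 300 bases out was 2.39% of the island's interior median on the high side and 14.5% on the low side. No read at all lay in those 200 bases beyond the high side of 33.4% of islands and beyond the low side of 10.1%. Over all islands, coverage beyond the end was thus sparser past the high side than past the low side. The first 100 bases did not show this in every class. In islands of mean depth 40 to under 100, with sides from 1 library and reads from the other, a mean of 21.6% of them had a read on the high side and 19.98% on the low side (19.4% and 19.3% with the libraries exchanged). In the deeper stretches the mean share was 29.6% on both sides. There the sides and the reads both came from the sum of the libraries, so this value is not on the same terms as those from 1 library.

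Island by island, the flank from 101 to 300 bases was deeper on the high side in 430 islands (33.3%), deeper on the low side in 824 (63.7%) and equal in 39. With the sides named in replicate 1 and the flank read in replicate 2, a median of 17.5% of those bases had a read on the high side and 47.5% on the low side (1277 islands). With the libraries exchanged it was 17.5% on the high side and 43.5% on the low side. Among islands with a slope under 0.5 units, where the naming of sides is least certain, the medians were 26.0% on the high side and 42.0% on the low side with sides from replicate 1, and 30.5% and 30.75% with sides from replicate 2. In islands of slope over 2 units they were 12.0% on the high side and 41.5% on the low side with sides from replicate 1. The gap to the next covered stretch had a median of 79 bases on the high side and 37 on the low side. These are descriptions of islands, which are not replicates, and carry no test.

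**Figure D4:**
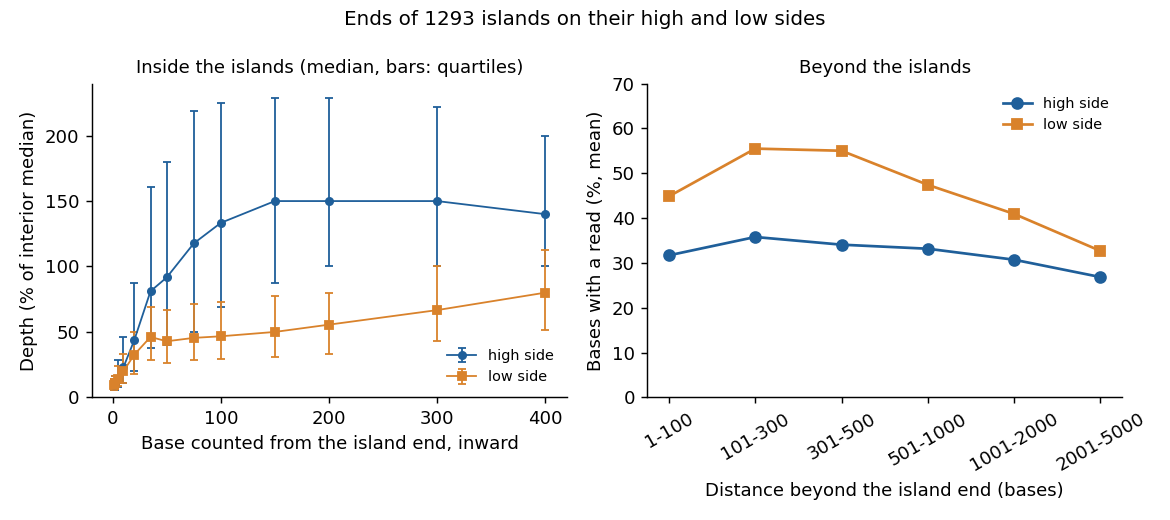
Left, depth (percent of the interior median) at bases counted inward from the island end, as medians with quartiles as bars; right, mean share of bases with a read at distances beyond the end. The high side climbs to 150% by base 150 and has 31.7 to 35.8% of bases read within 500 bases outside, while the low side stays near 45% to base 100 and has 44.9 to 55.5% outside.

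Most islands had a short gap on at least 1 side, and most neighbours were small but longer than the median stretch. The nearer gap of an island had a median of 15 bases (interquartile range 5 to 59), and in 526 islands (40.7%) it was 10 bases or less. In the deeper stretches the nearer gap was 10 bases or less in 37 of 123 (30.1%). The farther gap had a median of 165 bases (48 to 417). Of all 2586 gaps beside islands 43.3% were 35 bases or less, 94.4% were 1000 or less, and 13 exceeded 5000. Among all gaps of the series, each counted singly, the median was 78 bases, and 15.2% were 10 bases or less. These values cannot be set against the nearer of 2 gaps, which is shorter by its choice. In the deeper stretches 39 of 246 gaps counted singly (15.9%) were 10 bases or less. The stretch on the other side of the gap had a median of 68 bases and a mean depth of 2.13. Over all stretches the medians were 35 bases and a mean depth of 1.09. At 899 ends (34.8%) it was no longer than 35 bases, the length of a read. Only 144 neighbours (5.57%) had 500 bases or more and 32 (1.24%) 1000 or more. Among the neighbours of the 4103 stretches of 500 to 999 bases under a depth of 100, 6.35% had 500 bases or more and 1.44% had 1000 or more. Of all 321431 stretches, 1.78% had 500 bases or more and 0.441% had 1000 or more. Long neighbours were thus about as frequent beside the islands as beside the shorter stretches and more frequent than long stretches are among all stretches, and these differences were not tested.

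Candidate splice edges were found at few island ends. A base where shortened alignments (up to 32 nt, trimmed until they matched) of at least 6 different lengths begin or end was taken as the candidate edge of an exon, since a read across a splice junction can match the genome only on its exon part. Such an edge of the matching side lay within 10 bases of 53 island ends (2.05%), of 124 of 8206 ends of the stretches of 500 to 999 bases under a depth of 100 (1.51%), of 68 of 246 ends of the deeper stretches (27.6%) and of 3831 of 642862 ends of all covered stretches (0.596%). The share in the islands thus lay above that of all stretches and below that of the deeper ones, and these differences were not tested. By depth class of the islands it was 0 of 662 ends under a mean depth of 10, 2 of 992 from 10 to under 20, 16 of 602 (2.66%) from 20 to under 40, and 35 of 330 (10.6%) from 40 to under 100. The share was higher in each deeper class. An edge was counted only where reads of at least 6 lengths met it, and a low share does not show that splice sites were absent.

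At matched depth the ends of islands and of shorter stretches were set side by side. Among the 647 islands in the middle range of mean depth, 9.87 to 26.2, an edge lay at 5 of 1294 ends (0.386%). Among 2425 stretches of 200 to 999 bases in the same range it lay at 120 of 4850 ends (2.47%). Depth in the outer 35 bases had a median of 4.37 reads in these islands and 6.50 in the shorter stretches, so depth at the ends was not fully matched and the difference was not tested. A candidate intron was a pair of edges 50 to 2000 bases apart with under 20% of the flanking depth between them. There were 1413 in the whole series. Such an intron lay across 24 island ends (0.928%) and inside 0 of the 1293 islands. Every base of an island must have a read and a candidate intron holds few, so this 0 was largely fixed by the rule. In the deeper stretches, which are also unbroken, a candidate intron lay across 75 of 246 ends (30.5%) and inside 4 of 123. Of the 1651 edge pairs of any depth in the whole series, 1413 were these candidate introns. A count of edge pairs inside islands was therefore also largely fixed by the rule. In the deeper stretches 38 of 123 (30.9%) held an edge pair, with 55 pairs in all. Inside the islands only 1 edge pair was found, at 36116141 to 36116260. Its 120 bases had a mean depth of 123.5, with flanks of 93.9 on the left and 131.2 on the right, so the reads did not thin out between these edges.

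Fewer of the reads on islands were trimmed. Shortened alignments (under 35 nt) were 4.49% of the reads on islands and 9.90% of all reads elsewhere. The median island had 4.21% (interquartile range 3.39 to 5.22%). In the middle range of depth the median was 4.22% in islands and 5.42% in the stretches of 200 to 999 bases. The deeper long stretches had a pooled share of 4.89% and the stretches of 500 to 999 bases under a depth of 100 one of 4.92%, so long stretches in general were low in trimmed reads. These differences were not tested.

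Islands were scattered over the whole assembly and seldom adjoined. Consecutive islands lay a median of 51415.5 bases apart (interquartile range 21046 to 109489), and the longest distance was 1102071 bases. Each of the 112 full windows of 1 Mb held at least 3 islands, with a median of 11.5 and at most 20. The number per window and the share of the window that was covered had a Pearson r of 0.762 (112 windows that share libraries and depth, and no test is given). Only 61 islands (4.72%) had another within 1000 bases, and 309 (23.9%) within 10000. In 16 cases islands were direct neighbours with no covered stretch between them.

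Where islands did lie close together, their depth tended to climb toward the gap between them. Of the 32 consecutive pairs up to 1000 bases apart, the first island rose and the second fell along the coordinate in 20 (62.5%), so that the high sides faced each other. The low sides faced each other in 4, both islands fell in 8 and both rose in 0. Pairs 1001 to 10000 bases apart had facing high sides in 34 of 132 (25.8%), and pairs over 10000 bases apart in 261 of 1128 (23.1%). In replicate 1 alone 19 of the 32 close pairs had facing high sides and in replicate 2 alone 21. In 11 of the 32 both slopes exceeded 1 unit, and in all 11 the high sides faced each other. The 32 pairs lie in 29 groups of islands, the pattern was noticed in these data, and it was not tested.

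**Figure D5:**
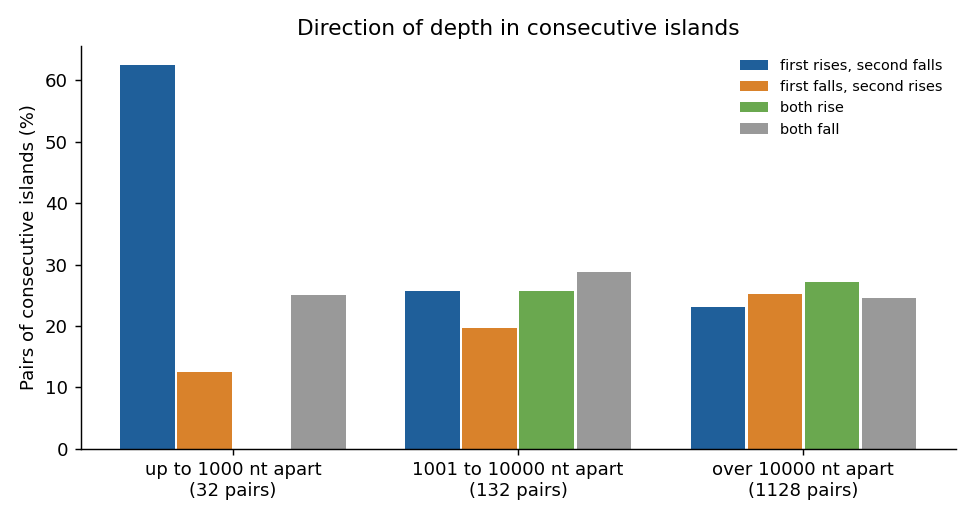
Share (percent) of pairs of consecutive islands by the direction of depth along the coordinate in the first and the second island, for pairs up to 1000, 1001 to 10000 and over 10000 bases apart. Among the 32 closest pairs 62.5% rise and then fall, beside 25.8% and 23.1% in the wider classes, where all 4 kinds are of similar share.

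The closest pairs were parted by a few unread bases. The first, at 57816066 to 57817637 and 57817639 to 57818639, was parted by 1 base. Its members had mean depths of 28.9 (14.6 in replicate 1 and 14.4 in replicate 2) and 8.94 (4.37 and 4.57 in the same order). Gaps of 2, 5, 11 and 25 bases parted the next 4 pairs, and in each of these the second island was the deeper. In the first and the second pair 1 island fell along the coordinate (-1.41 and -1.49 units) and the other was level (-0.03 and -0.01 units), and in the other 3 pairs depth climbed toward the gap. The fifth pair had slopes of 1.75 units at 45856694 to 45858059 and -3.23 units at 45858085 to 45859125. In pairs up to 1000 bases apart mean depths differed by a median of 1.34 log2 units, and in consecutive islands over 10000 bases apart by 0.95. Close islands were thus not closer in depth in these data, and the difference was not tested.

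The longest chain of islands up to 1000 bases apart, chosen here after its values were seen, had 5 members and included the second longest island. It spanned 10236 bases from 108395670 to 108405905. The members had 1275, 1104, 1084, 4024 and 1881 bases, and their mean depths were 35.9, 32.2, 21.6, 18.1 and 13.8 in that order. Within each member depth was nearly level, with slopes of -0.23, -0.61, 0.22, -0.13 and 0.04 units, 4 of them within 0.25 of 0. The gaps after the first 3 members were 105, 91 and 92 bases without a read. The 580 bases before the last member held reads, with a mean depth of 9.55. At every end in the chain 50% of the interior median was reached within 23 bases. Here nearly level blocks thus followed each other, while most islands elsewhere were tilted. Ends as steep as these were common among all islands, and some islands outside the chain were level too. The lowest interior depth was 17 in the first member and 3 in the last.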

How the data were processed

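Per the authors' deposited readme, the SOAP aligner placed Solexa reads on the unmasked assembly version 3.1, first with up to 2 mismatches and no indels, then trimmed base by base to as few as 21 nt until they matched. No SOAP version is given in the sources used here. The deposited tables hold raw counts of uniquely aligned reads per position and alignment length. Positions are printed as deposited and were read as the leftmost base.

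Counts were summed over both libraries and turned into depth per base from the start to start plus length minus 1. Islands were maximal stretches of depth 1 or more, at least 1000 bases long, with a mean depth below 100. The binomial test used TMM-scaled library totals (edgeR 4.0.16) and scipy 1.17.1, and was tested on simulated data. Alternatives included library totals and size factors of DESeq2 1.42.0. With 2 libraries of 1 group no model with replicates could be fitted. The reads carry no molecular identifiers, so counts can hold copies of 1 molecule.

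The members, lists and tests were chosen with earlier results of these data known. Regions were named by rank (longest, deepest, faintest, steepest, closest, and those at the limits). Steps, segments, flanks and pair directions were added after seeing the data. No genes or sequences are given, because no genome of this build was used here.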

Additional observations from a re-analysis of the deposited data

How the results depend on the processing

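The islands depended on depth and on the rule. Leaving out 1 library gave 639 to 647 islands in place of 1293, a median length of 1201 to 1208, a median slope of 1.68 to 1.70, an end depth of 34.7 to 36.8%, a nearest gap of 18, a distance of 99635 to 102781 bases, 2.43 to 2.55% of ends at an edge and 0 to 1 island holding a candidate intron. Of the islands in the sum, 45.5% shared bases with an island of replicate 2 alone and 44.4% with 1 of replicate 1 alone. The values below are the number of islands and, where they moved, median length, median slope, end depth, nearest gap and distance. Depth of at least 2 gave 758, 1225.5, 1.58, 39.6%, 14 and 82255, and depth of at least 5 gave 315, 1203, 1.55, 48.1%, 14 and 239678. Joining gaps of up to 10 bases gave 1867 islands, 1273, 1.51, 36.0%, 32 and 34882. Counting each position and length once gave 1414 islands, a slope of 1.16, ends of 37.4%, a gap of 16 and a distance of 46353. Full-length alignments alone gave 1214 islands, a median length of 1249, ends of 31.9%, a gap of 16 and a distance of 54477. A mean depth below 50 gave 1182 islands, a slope of 1.47, a gap of 14 and a distance of 59603. One below 200 gave 1357 islands, a slope of 1.57, a gap of 16 and a distance of 48233. A minimum length of 800 gave 2312, 1036, 1.68, 35.7%, the same gap and a distance of 26520, and of 1500 gave 329, 1763, 1.35, 32.5%, 13 and 213583. Over the whole length the slope was 1.31, and the outer 100 bases had 54.2%. With 4 lengths at an edge 5.72% of ends lay at one and 1 island held a candidate intron, and with 8 lengths 0.773% did. No island and no stretch differed between libraries under any of the 4 alternatives of that test. Fewer reads are part of the settings with 1 library, and otherwise the cause was not tested. No paired analysis was possible because both libraries belong to the same group.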
